A study of Mus musculus with 28 samples.

Results

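The IgLON, NCAM, MDGA and SynCAM genes are a set of immunoglobulin-superfamily adhesion genes of the nervous system, here Opcml, Ntm, Lsamp and Negr1 (IgLONs), Ncam1 and Ncam2, Mdga1 and Mdga2, and the SynCAM genes Cadm1 and Cadm2. Members were taken by name, through probe sets whose annotation gives that gene as the single symbol. Where a gene had several probe sets, the one with the highest mean over the 28 arrays was used. Of the 10 genes listed, 9 were measured, among 19938 genes in all. Cadm2 had no such probe set and was not analysed here. Mdga2 had 2 probe sets, and each other member had 1.

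All of these proteins sit on the cell surface and bind other surface proteins through immunoglobulin domains. The IgLONs are held in the membrane by a lipid (GPI) anchor, pair with themselves and with each other, and affect neurite outgrowth and synapse number. NCAM proteins bind each other between neighbouring cells, and NCAM1 is the main carrier of polysialic acid in the brain. MDGA proteins bind neuroligins and block their contact with neurexins, which restrains synapse formation, while SynCAM proteins join the pre- and postsynaptic membranes. Topoisomerase IIβ (Top2β, gene Top2b) passes one DNA duplex through a break in another and is the type II enzyme of postmitotic neurons. ICRF-193 is a catalytic inhibitor of type II topoisomerases, active on the α and the β enzyme.

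Mouse cells of strain 129SvEv were compared in 12 groups. Cells without Top2β and wild-type cells were each taken at 4 stages: embryonic stem (ES) cells, neuronal progenitors (NP cells), and the later stages named TN day 2 and TN day 6, an abbreviation that the labels do not spell out. Knockout and wild type had 2 arrays each in ES cells, NP cells and at TN day 2, and 3 each at TN day 6. Cells given 50 µM ICRF-193 or DMSO, its vehicle, were collected at TN day 5, with 2 arrays each. Glutamatergic neurons of the cortex at E16.5 (embryonic stage), given ICRF-193 or DMSO, had 3 arrays each. One treatment text, an agent renewed every 24 h between TN days 2 and 5, stands on every sample, and it does not say when the cortical cells were treated. The labels name no genotype for the ICRF-193 and DMSO cells, do not say how the deletion was made or how many clones were used, and leave the origin of the replicates (cultures, animals) unstated. The p-values therefore measure the spread between arrays, which may be technical.

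For 8 of the 10 genes the RefSeq promoter table of GRCm38.p6 held a window of 250 bases before to 50 bases after a transcript start, 10 windows in all. The windows of Ncam2 and Mdga2, which had the largest losses at TN day 2, and of Mdga1, the member that was higher with ICRF-193 in cortical neurons, are printed 5′ to 3′ on the strand of the gene. Capitals mark a GC box, searched as GGGCGG on either strand. The Ncam2 window is chr16:81200447-81200746 on the plus strand, the Mdga2 window chr12:67222500-67222799 on the minus strand and the Mdga1 window chr17:29887833-29888132 on the minus strand.
Ncam2: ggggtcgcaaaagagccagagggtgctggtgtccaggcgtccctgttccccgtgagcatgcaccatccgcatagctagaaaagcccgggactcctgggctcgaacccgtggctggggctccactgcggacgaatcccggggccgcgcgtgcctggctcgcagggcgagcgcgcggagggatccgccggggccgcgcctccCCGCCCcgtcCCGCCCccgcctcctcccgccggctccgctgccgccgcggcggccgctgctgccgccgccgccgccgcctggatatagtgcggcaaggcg
Mdga2: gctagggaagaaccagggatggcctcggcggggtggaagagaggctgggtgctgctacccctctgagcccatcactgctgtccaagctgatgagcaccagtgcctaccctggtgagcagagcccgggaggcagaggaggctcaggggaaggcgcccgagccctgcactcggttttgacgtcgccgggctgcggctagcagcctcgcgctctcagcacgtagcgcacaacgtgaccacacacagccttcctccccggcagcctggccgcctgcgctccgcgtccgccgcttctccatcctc
Mdga1: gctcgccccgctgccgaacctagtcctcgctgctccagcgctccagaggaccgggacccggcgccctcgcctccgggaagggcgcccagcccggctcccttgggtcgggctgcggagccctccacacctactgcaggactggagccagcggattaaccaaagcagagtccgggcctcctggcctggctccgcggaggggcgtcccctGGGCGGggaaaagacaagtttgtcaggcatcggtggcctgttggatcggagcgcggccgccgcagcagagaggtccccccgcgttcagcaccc
The Ncam2 window held 2 GC boxes and 41 CpG dinucleotides, the Mdga2 window no GC box and 22 CpG, and the Mdga1 window 1 GC box and 28 CpG, against a median of 7 CpG over the 32851 windows of the table. A GC box was found in 5 of the 10 windows of the listed genes and in 35.7% of all windows. An E-box (CANNTG, which reads the same on both strands) was found in 6 of the 10, in none of the 3 printed, and in 72.3% of all windows. These matches are descriptions of letters in a fixed window.

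The array medians lay between 6.12 and 6.43 on the log2 scale, and replicate arrays of a group correlated at 0.990 to 0.997, apart from the knockout ES pair at 0.967. Top2b was lower in the knockout at all 4 stages, for example at 8.99 and 8.94 in knockout arrays against 11.40 and 11.35 in wild-type arrays at TN day 2, and whether its probe set lies in the deleted region is not given. Top2a, the gene of the α enzyme of dividing cells, read 8.19 to 8.79 in knockout arrays against 6.62 to 7.11 in wild-type arrays at TN day 6. The pluripotency markers were high in ES cells alone, with list means of 9.93 to 11.07 in knockout and 11.01 to 11.18 in wild-type ES cells. The 7 pan-neuronal markers had list means of at least 10.34 at every TN stage and in the cortical cells. The cortical neuron list was high in the cortical cells alone. The DMSO cortical arrays carried the astrocyte and oligodendrocyte-lineage lists above their level in every other group, and the GABAergic list was higher in both cortical groups than elsewhere. In all tests, limma was fitted to the 28 arrays, p-values were adjusted over 19938 genes, and an adjusted p under 0.05 was a call. Levels are log2 values of one probe set and are compared between groups, not between genes.

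In wild-type cells the members rose in stages, and the stage differed between genes. Between ES and NP cells, 7 of 9 members were higher in NP cells and none lower, where 21.7% of all genes were higher and 24.5% lower. These were modest steps, the largest being Lsamp at 0.97 ± 0.22 (adjusted p = 0.000968) and Ncam1 at 0.95 ± 0.19 (adjusted p = 0.000305). Ncam2 gave 0.38 ± 0.15 (adjusted p = 0.0512), and Mdga1 gave 0.06 ± 0.11 (adjusted p = 0.671). The Ntm step of 0.54 ± 0.22 (adjusted p = 0.0472) was no longer called without any one of its 4 arrays.

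The step to TN day 2 belonged above all to Ncam2 and Mdga2. Ncam2, a homophilic adhesion protein best known from olfactory axons, read 8.50 and 8.76 in wild-type arrays at TN day 2, against 4.82 and 4.51 in wild-type NP cells, a 15.6-fold increase. Mdga2 read 8.08 and 8.39 at TN day 2, against 5.18 and 5.09 in NP cells. The log2 steps were 3.96 ± 0.15 (adjusted p = 2.31e-14) and 3.10 ± 0.16 (adjusted p = 8.47e-13). In this step 6 of 9 members were higher and none lower, against 21.6% and 26.6% of all genes, the other 4 being Ntm (1.58), Negr1 (1.38), Ncam1 (1.36) and Lsamp (1.11). Opcml did not take part, with 6.53 and 6.36 at TN day 2 against 6.80 and 6.77 in NP cells (-0.34 ± 0.16, adjusted p = 0.0867).

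The step to TN day 6 was largest for Ntm and took in Opcml and Mdga1, which were not called in the step before. Ntm, Negr1, Ncam2 and Lsamp were called in both steps. Ntm read 9.72 to 9.82 in wild-type arrays at TN day 6, against 7.81 and 7.72 at TN day 2, a log2 step of 2.00 ± 0.20 (adjusted p = 1.28e-07). Opcml, which had not risen in the step before, rose by 1.57 ± 0.15 (adjusted p = 4.86e-08), Negr1 by 1.45 ± 0.12 (adjusted p = 8.16e-09) and Mdga1 by 1.38 ± 0.10 (adjusted p = 2.19e-09). Ncam2 rose further by 1.13 ± 0.14. Of the 9 members, 6 were higher and none lower, where 16.7% of all genes were higher and 11.9% lower. The Lsamp step of 0.66 ± 0.20 (adjusted p = 0.0158) was 0.31 without wild-type replicate 2 of TN day 2 (adjusted p = 0.366). Ncam1 (0.12), Mdga2 (0.34) and Cadm1 (-0.06) did not pass the test there.

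Some members differed between DMSO cortical cells and DMSO cells at TN day 5. Opcml read 10.30 to 10.41 in DMSO cortical cells, against 7.44 and 8.26 in DMSO cells at TN day 5, a difference of 2.52 ± 0.15 (adjusted p = 1.26e-11). Ntm was higher by 1.94 ± 0.20 (adjusted p = 1.16e-07), Cadm1 by 0.74 ± 0.10 (adjusted p = 2.87e-06) and Negr1 by 0.46 ± 0.12 (adjusted p = 0.00353). Ncam2 (-0.88 ± 0.14, adjusted p = 3.61e-05) and Mdga2 (-0.52 ± 0.14, adjusted p = 0.00596) were lower. With arrays centred on their medians, which differed by -0.22 between these groups, the Mdga2 difference was -0.30 and not called (adjusted p = 0.118). That of Mdga1 was then called at 0.46 (adjusted p = 0.00167), where it had been 0.24. The other Mdga2 probe set differed by 0.02 here, and without DMSO replicate 2 of TN day 5 the Mdga2 difference was -0.26 (adjusted p = 0.206). The Negr1 call ended without DMSO replicate 1 of TN day 5 (0.38, adjusted p = 0.064) and under quantile normalization (0.26, adjusted p = 0.0573). Of 9 members, 4 were higher and 2 lower, against 24.4% and 20.4% of all genes, so the lower share was near that of all genes.

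Over the 12 groups the widest range of group means was that of Ncam2, 5.53 log2 units, followed by Ntm with 5.22, Mdga2 with 4.74, Opcml with 4.40 and Negr1 with 4.11. Mdga1 had the narrowest, 2.01. DMSO cortical cells held the highest group mean of 6 members, Opcml, Ntm, Lsamp, Negr1, Ncam1 and Cadm1. For Lsamp and Ncam1, the arrays of that group overlapped those of DMSO cells at TN day 5, the next group down. Ncam2 was highest in wild-type cells at TN day 6, with arrays overlapping those of DMSO cells at TN day 5, and Mdga2 was highest in DMSO cells at TN day 5. Mdga1 was highest in ICRF-193 cortical cells. The lowest mean was in ES cells for 8 members, and for Cadm1, a SynCAM already well expressed in ES cells, it was in the ICRF-193 cortical cells.

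**Figure D1:**
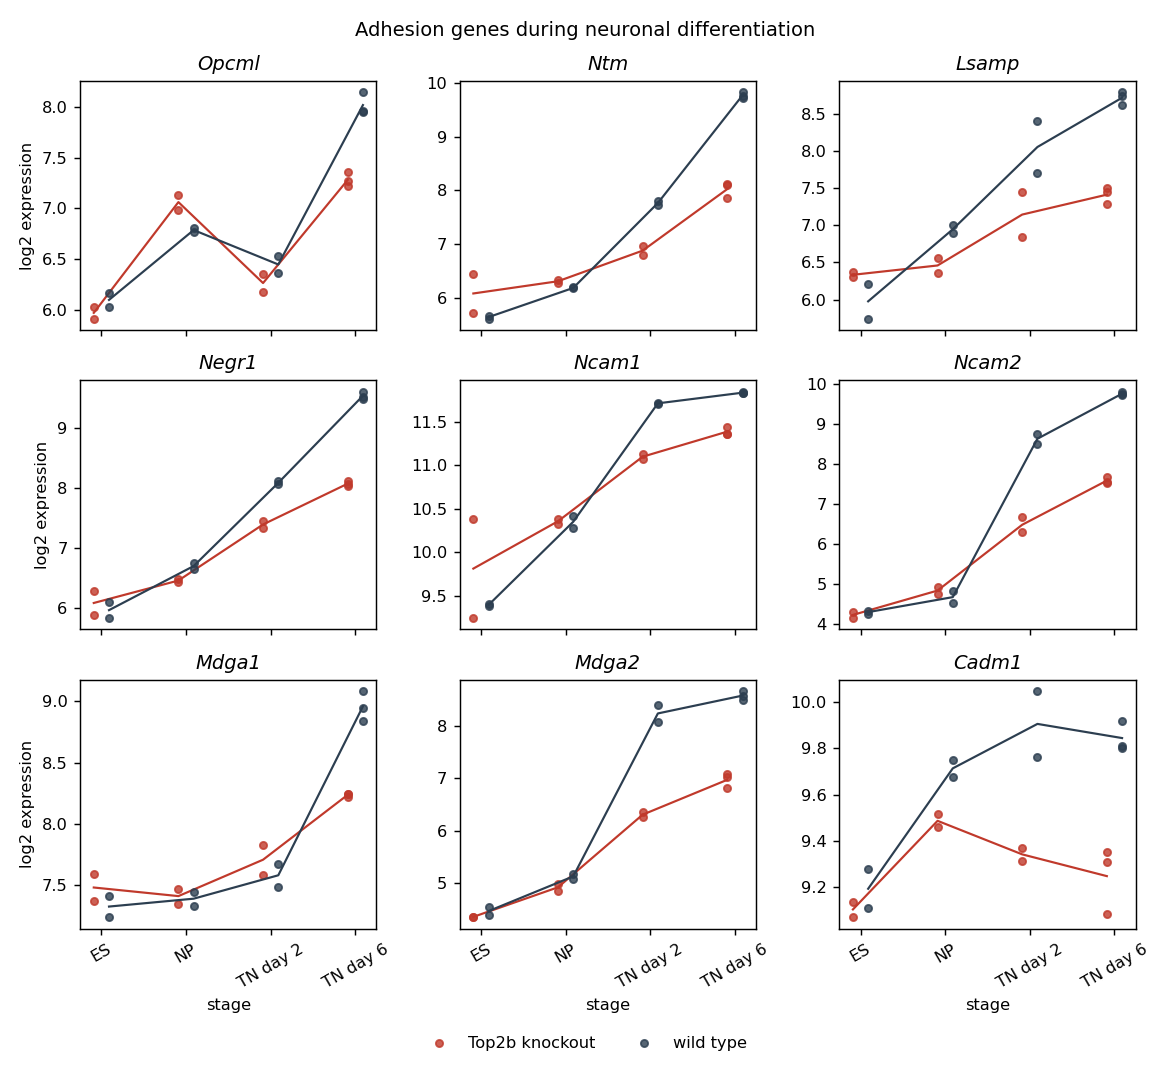
Log2 expression of the 9 measured members in ES cells, NP cells, TN day 2 and TN day 6, with knockout arrays drawn left of wild-type arrays at each stage, 1 point per array, lines through the group means and a scale of its own for each gene. Ncam2 and Mdga2 part between the genotypes at TN day 2, and Opcml and Mdga1 part at TN day 6.

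No member was called between knockout and wild type in ES or NP cells. In ES cells 0 of 9 were called, where 0.0853% of all genes were higher and 0.266% lower in the knockout. The members' median log2 fold change was 0.12, against 0.01 over all genes. The lowest adjusted p was that of Ncam1, which read 10.38 and 9.25 in knockout arrays against 9.41 and 9.39 in wild-type arrays (0.42 ± 0.19, adjusted p = 0.311). One knockout array was high and the other was below both wild-type arrays, and the same array was the higher one for Ntm (6.44 and 5.72 in the knockout, 5.67 and 5.61 in wild type). Without knockout replicate 2, Ncam1 (0.98, adjusted p = 9.73e-08) and Ntm (0.80, adjusted p = 0.0128) passed as higher, but in that setting 2817 of all genes were called higher and 2201 lower, against 17 and 53 with all arrays. The mesenchymal marker list was also uneven in these cells, at 8.73 and 10.36 in knockout arrays against 9.01 and 9.02 in wild-type arrays, and its part was not tested.

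In NP cells 0 of 9 members were called, where 0.381% of all genes were higher and 0.246% lower in the knockout. The lowest adjusted p was 0.607, for Lsamp, with 6.56 and 6.36 in knockout arrays against 6.89 and 7.0 in wild-type arrays (-0.49 ± 0.22). The members' median was 0.01, against -0.02 over all genes. Opcml was higher in both knockout arrays, 7.14 and 6.99, than in both wild-type arrays, 6.80 and 6.77, and did not pass (adjusted p = 0.808).

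At TN day 2, 7 of 9 members were lower in the knockout and none higher, where 5.97% of all genes were lower and 5.49% higher. The members' median log2 fold change was -0.69, against -0.04 over all genes. Ncam2 read 6.66 and 6.29 in knockout arrays, against 8.50 and 8.76 in wild-type arrays. Mdga2, which keeps neuroligins from neurexins, read 6.36 and 6.26 in the knockout, against 8.08 and 8.39 in wild type. The genotypes did not overlap for either gene, and Ncam2 was 4.45-fold lower (-2.15 ± 0.15, adjusted p = 2.24e-08) and Mdga2 3.81-fold lower (-1.93 ± 0.16, adjusted p = 1.3e-07). The other Mdga2 probe set gave -2.21 ± 0.18. Tested as a difference between stages, the knockout effects at TN day 2 exceeded those in NP cells for Ncam2 (-2.32 ± 0.22, adjusted p = 4.54e-06) and Mdga2 (-1.72 ± 0.22, adjusted p = 0.000261). Of all genes, 1.33% had a more negative effect at TN day 2 by that test and 1.38% a more positive one. No further member passed it in the main fit. Ntm (-1.01 ± 0.31) passed with array weights (adjusted p = 0.0262) and in a fit to the compared arrays alone (adjusted p = 0.0245). It also passed with the replicate number as a block (adjusted p = 0.0216). Ncam1 (-0.62) passed with array weights (adjusted p = 0.0286).

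The other falls at TN day 2 were smaller. Negr1, an IgLON of cortical and hippocampal neurons, read 7.33 and 7.45 in knockout arrays against 8.06 and 8.11 in wild-type arrays (-0.69 ± 0.13, adjusted p = 0.00121). Lsamp, known from limbic circuits, read 6.84 and 7.45 in the knockout against 8.41 and 7.70 in wild type (-0.91 ± 0.22, adjusted p = 0.0087). Ntm read 6.96 and 6.80 in the knockout against 7.81 and 7.72 in wild type (-0.89 ± 0.22, adjusted p = 0.0101). The spread within a genotype was widest for Lsamp, whose higher knockout array came close to the lower wild-type array. Cadm1 fell by 0.56 ± 0.11 (adjusted p = 0.00134), and Ncam1 by 0.61 ± 0.19 (adjusted p = 0.0416). In all 5 the arrays of the genotypes did not overlap, but only the calls of Negr1, Ncam2 and Mdga2 held in every setting tried. Without wild-type replicate 1 these 3 were the only calls. That array decided the calls of Lsamp (-0.56, adjusted p = 0.266), Ntm (-0.84, adjusted p = 0.106) and Cadm1 (-0.42, adjusted p = 0.0591). The Lsamp call also ended without knockout replicate 1 (-0.60), the Ntm call without knockout replicate 2 (-0.81), and the Ncam1 call without any one of the 4 arrays. Opcml (-0.18 ± 0.16, adjusted p = 0.569) and Mdga1 (0.13 ± 0.11, adjusted p = 0.572) did not pass, and neither was called between wild-type TN day 2 and NP cells. Cadm1, lower in the knockout here, was not called in that wild-type step either (0.19 ± 0.11, adjusted p = 0.148). A link between the wild-type step and the knockout effect was not tested.

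Cell-type markers moved at the same stage. Of the 7 pan-neuronal markers, 5 were lower in the knockout, with list means of 10.34 and 10.61 in knockout arrays against 10.96 and 11.04 in wild-type arrays. Of the 6 mesenchymal markers, 3 were higher, with list means of 10.43 and 10.91 in knockout arrays against 8.02 and 10.10 in wild-type arrays. Of the 4 cell cycle markers, 3 were higher (9.54 to 9.65 in knockout arrays, 8.80 to 8.93 in wild type). Of the 6 neural progenitor markers, 2 were lower (8.73 and 9.09 in knockout arrays, 9.14 and 10.03 in wild type). Of the 3 glutamatergic markers, 2 were lower (6.62 and 7.27 in knockout arrays, 7.48 and 7.71 in wild type). Their part in the members' falls was not tested. In such bulk samples, fewer neurons and less of a transcript per neuron cannot be told apart.

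At TN day 6, 8 of 9 members were lower in the knockout and none higher, where 4.8% of all genes were lower and 5.38% higher. The members' median was -1.31, against 0.00 over all genes, and all 8 calls held in every setting tried. Among the IgLONs, Ntm read 7.85 to 8.11 in knockout arrays against 9.72 to 9.82 in wild-type arrays, a 3.35-fold fall (-1.74 ± 0.18, adjusted p = 5.56e-07). Negr1 read 8.04 to 8.11 in the knockout against 9.48 to 9.60 in wild type (-1.46 ± 0.11, adjusted p = 3.24e-09). Lsamp read 7.29 to 7.50 in the knockout against 8.62 to 8.79 in wild type (-1.31 ± 0.18, adjusted p = 3e-05). The knockout arrays of these 3 genes lay close together and well below wild type. Opcml, uncalled at TN day 2, read 7.22 to 7.36 in the knockout against 7.95 to 8.14 in wild type (-0.74 ± 0.13, adjusted p = 0.000479). All 4 IgLONs were thus lower, each with a gap between the genotypes wider than the spread within them.

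Of the NCAM genes, Ncam2 read 7.52 to 7.67 in knockout arrays against 9.71 to 9.81 in wild-type arrays, a 4.51-fold fall (-2.17 ± 0.13, adjusted p = 1.56e-10). Ncam1 read 11.36 to 11.44 in the knockout against 11.82 to 11.84 in wild type, without overlap, and did not pass (-0.45 ± 0.16, adjusted p = 0.0797). It passed with array weights (adjusted p = 6.47e-05) and in a fit to these 6 arrays alone (adjusted p = 0.00231). The error of its main estimate takes in the wide ES knockout pair. Mdga2 fell by 1.60 ± 0.13 (adjusted p = 1.49e-08) and Mdga1 by 0.72 ± 0.09, with 8.22 to 8.25 in the knockout against 8.84 to 9.08 in wild type (adjusted p = 1e-05). Cadm1 fell by 0.60 ± 0.09 (adjusted p = 5.54e-05).

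A larger knockout effect at TN day 6 than at TN day 2 was called for 2 members. For Mdga1, the effect at TN day 6 minus that at TN day 2 was -0.85 ± 0.14 (adjusted p = 0.00109), and for Negr1 it was -0.77 ± 0.17 (adjusted p = 0.00767). Of all genes, 2.09% had a more negative effect at TN day 6 and 2.71% a more positive one. Ntm had an estimate of similar size (-0.86 ± 0.28) and was not called in the main fit. It was called with array weights (-0.84, adjusted p = 0.0202) and in a fit to the compared arrays alone (adjusted p = 0.00962). With the replicate number as a block it was called too (adjusted p = 0.0204). The Negr1 call ended without wild-type replicate 1 (adjusted p = 0.0525) or knockout replicate 2 (adjusted p = 0.0634) of TN day 2.

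The distance between ES cells and TN day 6 was shorter in the knockout for every measured member, as a difference of group means that was not tested. Ncam2 stood 3.36 log2 units above its ES level in knockout cells at TN day 6, against 5.46 in wild type. The same measure was 2.61 in the knockout against 4.10 in wild type for Mdga2. For Ntm it was 1.94 in the knockout against 4.12 in wild type, and for Cadm1 0.14 in the knockout against 0.65 in wild type. The Ntm distance in the knockout rests on uneven ES arrays, at 6.44 and 5.72, against 5.67 and 5.61 in wild type. The knockout arrays of Cadm1 at TN day 6 overlapped those of ES cells. Set against wild-type cells of TN day 2, all 3 knockout arrays of TN day 6 were lower than both wild-type arrays for 5 members (Lsamp, Ncam1, Ncam2, Mdga2 and Cadm1), overlapped them for Negr1, and were higher for Opcml, Ntm and Mdga1. This last comparison crosses stages and was not tested.

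At TN day 6, 1 of 7 pan-neuronal markers was lower in the knockout, with list means of 11.08 to 11.13 in knockout against 11.37 to 11.41 in wild-type arrays. None of the 7 passed the test of a difference between the knockout effects at TN day 6 and TN day 2. Of 4 cell cycle markers 4 were higher (7.18 to 7.68 in knockout arrays, 6.06 to 6.29 in wild type), and of 6 neural progenitor markers 3 were higher (9.28 to 9.61 in knockout arrays, 8.32 to 8.51 in wild type). Of 5 oligodendrocyte-lineage markers 2 were higher. Of 3 glutamatergic markers 1 was lower, with list means of 8.08 to 8.23 in knockout arrays against 8.96 to 8.97 in wild type. The part of these markers in the members' falls was not tested.

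In cells at TN day 5, 7 of 9 members were lower with ICRF-193 and none higher, where 6.37% of all genes were lower and 2.51% higher. The members' median was -1.76, against 0.02 over all genes. Mdga2 read 5.52 and 5.93 with ICRF-193, against 8.84 and 9.36 with DMSO, a 10.4-fold fall (-3.37 ± 0.16, adjusted p = 3.33e-12). Ncam2 read 6.12 and 6.35 with ICRF-193, against 9.21 and 9.72 with DMSO, a 9.41-fold fall (-3.23 ± 0.15, adjusted p = 3.96e-12). For every member called here, Mdga2 and Ncam2 among them, both ICRF-193 arrays lay below both wild-type arrays of TN day 2. The second Mdga2 probe set gave -3.62 ± 0.18.

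Lsamp read 6.68 and 6.87 with ICRF-193 against 8.46 and 9.12 with DMSO (-2.02 ± 0.22, adjusted p = 1.49e-06). Negr1 fell by 1.92 ± 0.13 (adjusted p = 1.11e-09) and Ntm by 1.76 ± 0.22 (adjusted p = 9.75e-06). Cadm1 read 8.03 and 8.14 with ICRF-193 against 9.65 and 9.61 with DMSO (-1.55 ± 0.11, adjusted p = 1.44e-09), below every ES and NP array. Ncam1 fell by 1.22 ± 0.19 (adjusted p = 0.000215). These 7 calls held in every setting tried. The remaining pair, Mdga1 and Opcml, differed little. Mdga1 read 8.63 and 8.49 with ICRF-193 against 8.81 and 8.66 with DMSO (-0.17 ± 0.11, adjusted p = 0.367). Opcml read 7.41 and 7.55 with ICRF-193 against 7.44 and 8.26 with DMSO, overlapping values that did not pass (-0.37 ± 0.16, adjusted p = 0.161). The DMSO arrays of Opcml were far apart, and without DMSO replicate 1 its fall was -0.78 (adjusted p = 0.000245).

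Of the pan-neuronal markers, 2 of 7 were lower with ICRF-193 at TN day 5, with list means of 10.84 and 10.85 with ICRF-193 against 11.18 and 11.26 with DMSO. All 4 cell cycle markers (5.77 and 6.15 with ICRF-193, 6.64 and 7.44 with DMSO) and 3 of 6 neural progenitor markers (6.99 and 7.14 with ICRF-193, 8.06 and 8.80 with DMSO) were lower too. Of 3 glutamatergic markers 1 was lower (8.24 and 8.34 with ICRF-193, 8.71 and 8.78 with DMSO). Their part in the members' falls was not tested.

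**Figure D2:**
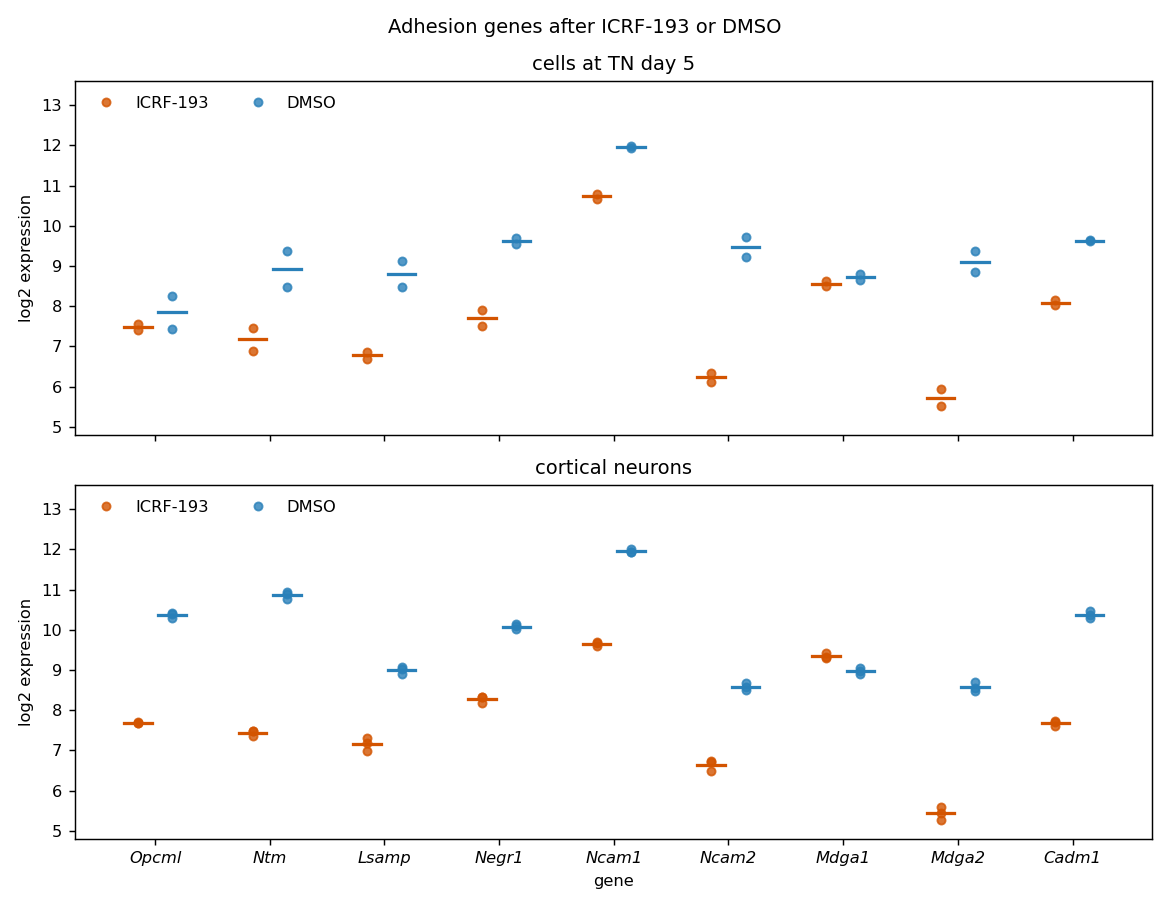
Log2 expression of the 9 measured members in cells at TN day 5 and in cortical neurons, with ICRF-193 arrays drawn left of DMSO arrays, 1 point per array and a bar at the group mean. Opcml overlaps between ICRF-193 and DMSO at TN day 5 and is separated in cortical neurons, and Mdga1 is the member that is higher with ICRF-193 in cortical neurons.

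In cortical neurons 8 of 9 members were lower with ICRF-193 and 1 higher, where 13.7% of all genes were lower and 9.72% higher. The members' median was -2.31, against 0.04 over all genes. Ntm read 7.36 to 7.49 with ICRF-193 against 10.76 to 10.94 with DMSO, a fall by 3.43 ± 0.18 (adjusted p = 4.13e-12). Opcml, its neighbour on chromosome 9, read 7.67 to 7.72 with ICRF-193 against 10.30 to 10.41 with DMSO, a 6.43-fold fall (-2.68 ± 0.13, adjusted p = 1.24e-12). The other IgLONs, Lsamp (-1.84 ± 0.18, adjusted p = 1.07e-07) and Negr1 (-1.81 ± 0.11, adjusted p = 2.48e-11), fell by less on this scale.

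Cadm1 read 7.61 to 7.73 with ICRF-193 against 10.29 to 10.47 with DMSO (-2.70 ± 0.09, adjusted p = 6.36e-15), so the drug took it below ES cells, where it read 9.07 to 9.28. Ncam1 read 9.60 to 9.70 with ICRF-193 against 11.94 to 12.01 with DMSO (-2.31 ± 0.16, adjusted p = 2.9e-10). Ncam2 fell by 1.94 ± 0.13 (adjusted p = 1.4e-10). Mdga2 fell by 3.14 ± 0.13 (adjusted p = 9.06e-14), and by 3.52 ± 0.15 on its other probe set. Mdga1 was the exception, at 9.29 to 9.41 with ICRF-193 against 8.90 to 9.04 with DMSO (0.37 ± 0.09, adjusted p = 0.00557). Array medians were 0.12 higher with ICRF-193 than with DMSO here, and with arrays centred on them the Mdga1 difference was 0.25 and no longer called (adjusted p = 0.0729). The 8 falls held in every setting tried.

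The size of the drug's effect differed between TN day 5 and cortical neurons for 6 members. Taken as the effect at TN day 5 minus that in cortical neurons, it was 2.32 ± 0.21 for Opcml (adjusted p = 1.67e-07), 1.67 ± 0.28 for Ntm (adjusted p = 0.000668), 1.15 ± 0.14 for Cadm1 (adjusted p = 1.05e-05) and 1.10 ± 0.25 for Ncam1 (adjusted p = 0.0092). For these 4 the fall was deeper in cortical neurons. For Ncam2 it was deeper at TN day 5 (-1.29 ± 0.20, adjusted p = 0.000225), and for Mdga1 the difference was -0.54 ± 0.14 (adjusted p = 0.0322). Of all genes, 2.68% had a positive difference by this test and 1.69% a negative one. The Ncam1 call ended without ICRF-193 replicate 1 of TN day 5 (1.03, adjusted p = 0.0516). The Mdga1 call ended without DMSO replicate 1 or ICRF-193 replicate 2 of TN day 5 or without any of 4 cortical arrays, at -0.46 to -0.55. It also ended with arrays centred on their medians (adjusted p = 0.0935), with array weights (adjusted p = 0.0631) and with the replicate number as a block (adjusted p = 0.0573). Opcml, Ntm and Cadm1 also had higher DMSO levels in cortical cells than at TN day 5, and Ncam2 a lower one. The treatment time of the cortical cells is unstated, so cell type and treatment time cannot be told apart in this contrast.

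Markers of other cells moved with the drug in the cortical cultures. Of 5 astrocyte markers 4 were lower (list means of 6.05 to 6.11 with ICRF-193, 7.42 to 7.67 with DMSO), and of 5 oligodendrocyte-lineage markers 4 were lower (5.97 to 6.02 with ICRF-193, 7.73 to 7.91 with DMSO). All 4 cell cycle markers were lower (5.87 to 5.91 with ICRF-193, 7.53 to 7.66 with DMSO), and all 4 microglia markers were higher (7.04 to 7.23 with ICRF-193, 6.43 to 6.45 with DMSO). Of 7 pan-neuronal markers 4 were lower and 1 higher, with list means of 10.85 to 10.91 with ICRF-193 and 11.37 to 11.43 with DMSO. The cortical neuron list was at 9.36 to 9.46 with ICRF-193 and 9.25 to 9.30 with DMSO. Of 6 neural progenitor markers 3 were lower (8.15 to 8.31 with ICRF-193, 9.05 to 9.09 with DMSO). The part of the non-neuronal markers in the members' falls was not tested.

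**Figure D3:**
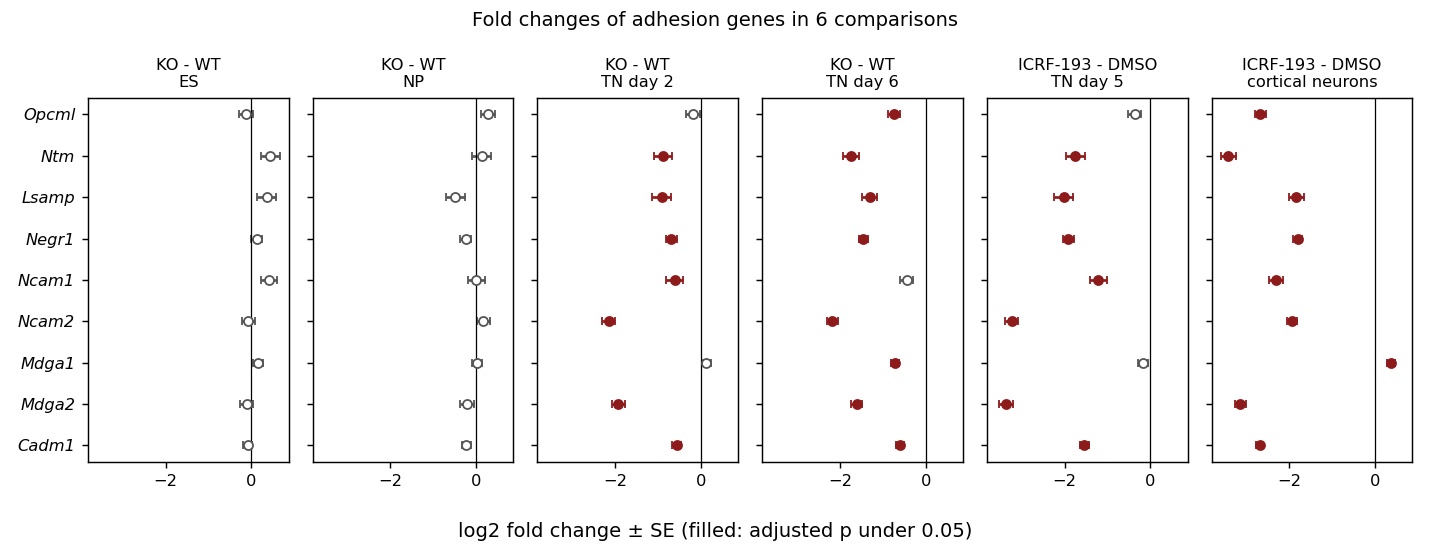
Log2 fold changes, knockout over wild type or ICRF-193 over DMSO, of the 9 measured members in the 6 comparisons, with bars of 1 SE of the limma model and filled points where the adjusted p was under 0.05. No value is called in ES or NP cells, where they lie between -0.49 (Lsamp in NP cells) and 0.44 (Ntm in ES cells). Ncam2 and Mdga2 have the largest falls at TN day 2 and with ICRF-193 at TN day 5.

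Most of these genes are among the longest in the mouse genome. By the RefSeq annotation of GRCm38.p6, Lsamp spans 2197.4 kb between its outermost transcript ends, and only 3 of the 19916 genes with a span are longer. Opcml spans 1134.7 kb and Ntm 968.5 kb, next to each other on chromosome 9. Mdga2 spans 763.1 kb, Negr1 754.7 kb, Ncam2 423.6 kb, Cadm1 332.1 kb and Ncam1 297.3 kb. Mdga1, at 60.6 kb, is the short one, with 3908 genes longer.

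The 8 long members were set beside the other genes with a span of at least 250 kb, a limit chosen after the spans and fold changes were known. Only 98 of the 19916 genes with a span are longer than Negr1. Most genes of this set are therefore shorter than Negr1, Mdga2, Ntm, Opcml and Lsamp. The set was not matched to the members for expression. Of the 683 other genes with a span of at least 250 kb, 27.1% were lower in the knockout at TN day 2 and 31.2% at TN day 6, against 5.19% and 3.83% of the 19224 shorter genes. With ICRF-193 39.2% of the long genes were lower at TN day 5 and 58.4% in cortical neurons, against 5.18% and 12% of the shorter ones. The median log2 fold changes of the long genes in these comparisons, in the same order, were -0.20, -0.19, -0.36 and -0.51. Of the 8 long members, 7, 7, 7 and 8 were lower in the same order. Mdga1, the short member, was lower at TN day 6 (-0.72 ± 0.09, adjusted p = 1e-05). It was not called at TN day 2 or TN day 5 and was higher in cortical neurons. Lsamp, the longest member, fell less than Ncam2 and Mdga2 in the knockout at TN day 2 and TN day 6 and with ICRF-193 at TN day 5. The part of span in the members' losses was not tested.

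**Figure D4:**
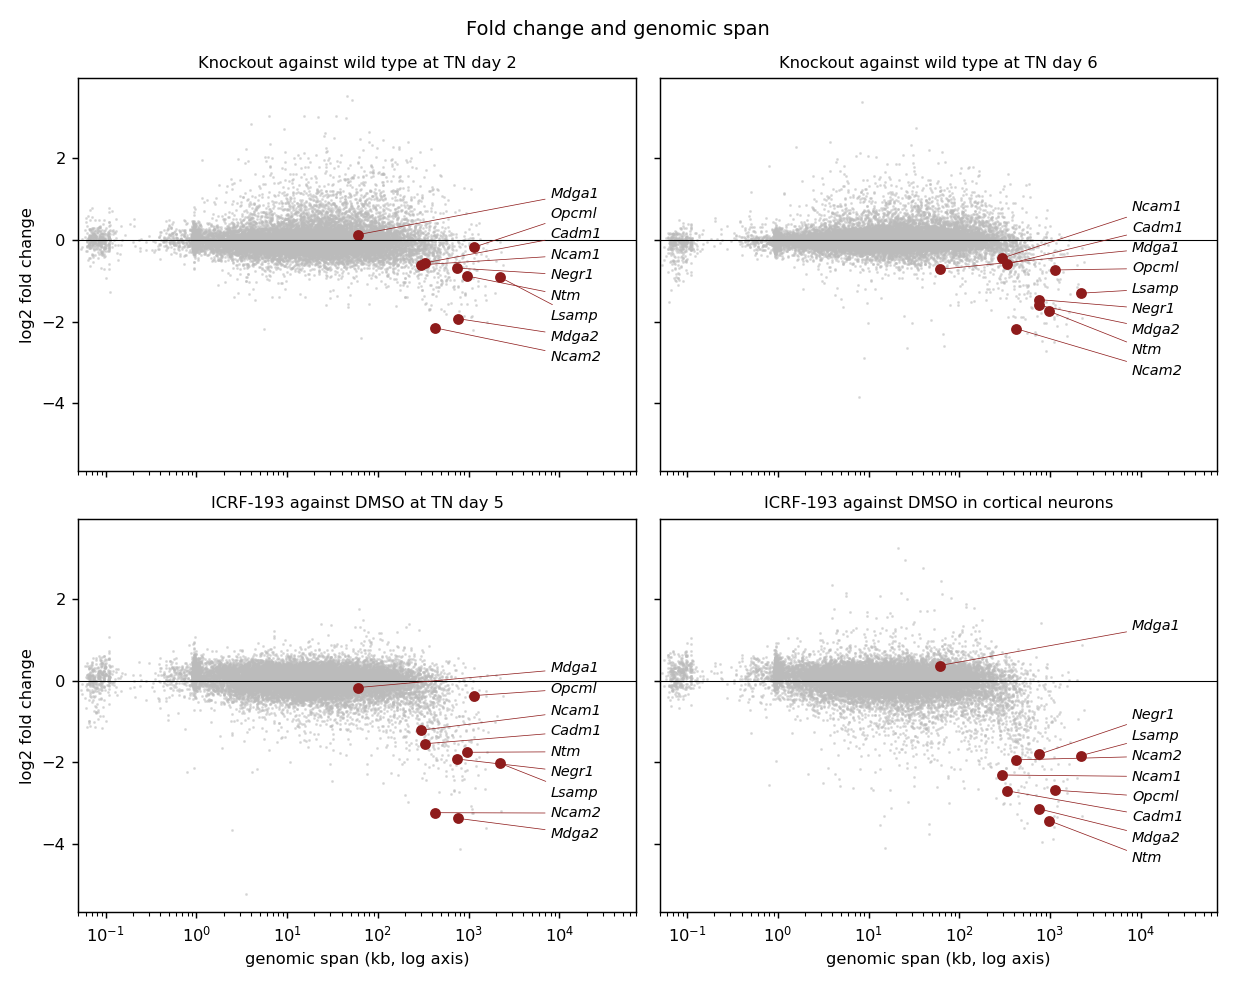
Log2 fold change against genomic span on a log axis, for all genes with a span (grey) and the 9 measured members (dark red), in the knockout at TN day 2 and TN day 6 and with ICRF-193 at TN day 5 and in cortical neurons. Long genes extend further below 0 in each panel, and Mdga1 lies apart from the other members by its span of 60.6 kb.

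Genes near the members in function were counted from lists of 47 paralogs, relatives and partners, all of them measured. None was called in ES cells, and 2 were higher and 1 lower in the NP knockout. At TN day 2, 22 were lower and 3 higher in the knockout, and at TN day 6, 11 were lower and 6 higher. With ICRF-193, 15 were lower and 2 higher at TN day 5, and 18 were lower and 7 higher in cortical neurons. The shares of all genes in the same comparisons are those given beside the members.

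The closest paralogs, Iglon5, Cadm3 and Cadm4, were all lower in the knockout at TN day 2, by 0.43 to 0.74 log2 units, and none was called at TN day 6 or with ICRF-193 at TN day 5. With ICRF-193 in cortical neurons, Cadm3 was lower (-0.37 ± 0.07, adjusted p = 0.000289). The 4 L1-family genes L1cam, Nrcam, Nfasc and Chl1 were likewise all lower at TN day 2, with Nrcam at -1.16 ± 0.18 (adjusted p = 0.000252), and none was called at TN day 6. L1cam, an axonal adhesion protein, was higher with ICRF-193 at TN day 5 (0.52 ± 0.16, adjusted p = 0.0432), and Nrcam was lower (-0.60 ± 0.18, adjusted p = 0.0417). In cortical neurons Nrcam (-1.15 ± 0.15) and Chl1 (-1.16 ± 0.15) were lower with ICRF-193 and none of this family was higher. Among the other immunoglobulin adhesion genes, Cntn5, a contactin, fell by 1.67 ± 0.19 in the knockout at TN day 6, by 2.31 ± 0.23 with ICRF-193 at TN day 5 and by 2.73 ± 0.19 in cortical neurons. In the knockout, Cntn6, another contactin, was lower at TN day 2 (-1.71 ± 0.22, adjusted p = 3.61e-05). The relatives that were higher in the knockout included Alcam (1.21 ± 0.28) and Cntn1 (0.65 ± 0.12) in NP cells, Mcam (1.18 ± 0.23) and Kirrel1 (1.06 ± 0.20) at TN day 2, and the FGF receptor gene Fgfr2 (0.97 ± 0.16) and Igsf11 (0.82 ± 0.22) at TN day 6. Igsf11, a homophilic adhesion gene, neighbours Lsamp, which was lower at that stage. Nlgn1, a neuroligin that MDGA proteins bind, was lower in the knockout in NP cells (-0.68 ± 0.15, adjusted p = 0.046), at TN day 2 (-1.33 ± 0.15, adjusted p = 1.19e-05) and at TN day 6 (-1.52 ± 0.13, adjusted p = 2.43e-08). It was lower with ICRF-193 at TN day 5 (-1.59 ± 0.15, adjusted p = 2.84e-07) and in cortical neurons (-2.42 ± 0.13, adjusted p = 4.13e-12). Mdga2 and its partner gene Nlgn1 were thus both lower at TN day 2, at TN day 6 and with ICRF-193 in both cell types. Nlgn2 and Nlgn3, also on the lists and measured, are not described here, and Nlgn1 was named in part after its values were seen. St8sia2 and St8sia4, which put polysialic acid on NCAM1, were lower in the knockout at TN day 2 by 0.52 ± 0.16 (adjusted p = 0.0401) and 0.87 ± 0.14 (adjusted p = 0.000248). With ICRF-193 in cortical neurons, St8sia4 (0.73 ± 0.11, adjusted p = 3.97e-05) and Thy1 (1.13 ± 0.30, adjusted p = 0.0101) were higher, as was Epb41l1, which anchors membrane proteins to the cytoskeleton, at TN day 5 (0.30 ± 0.08, adjusted p = 0.025).

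Across the 12 group means the members followed each other closely in part. Of 36 pairs, 18 had a Pearson r of at least 0.8, the highest at 0.97 (Mdga2 with Ncam2 and with Lsamp) and the lowest at -0.25 (Mdga1 with Cadm1), with a median of 0.78. Among the 6707 genes compared, the pattern most like that of Ncam2 was Khdrbs2 (0.992), then B3galt1 (0.991), which was also nearest to Mdga2 (0.988). Negr1 was most like Fgf12 (0.989), Ntm most like Marchf1 (0.987), Opcml most like Cntnap3 (0.985), Lsamp most like Cntn5 (0.982), Mdga1 most like Syn2 (0.973) and Ncam1 most like Ank3 (0.971). Cadm1 had the loosest match, Robo1 at 0.909. The second nearest were Grm5 (Opcml, 0.968), Tafa2 (Ntm, 0.983), Rbfox1 (Lsamp, 0.981), Btbd9 (Negr1, 0.984), Kalrn (Ncam1, 0.966), Pde4dip (Mdga1, 0.973), Plcb1 (Mdga2, 0.981) and Zswim6 (Cadm1, 0.860). These are correlations over 12 means that share differentiation stage and array, given as descriptions.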

How the data were processed

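Total RNA was measured on Affymetrix whole-transcript arrays. The deposited values are log2 expression values of 35556 probe sets on 28 arrays, for which the submitters' processing notes name oligo 1.14.0; the steps used (background correction, summarization, logarithm base) are unstated in the sources used here, and base 2 was read from the range of 1.96 to 13.99. No further normalization was applied. The supplied probe annotation gave 1 gene symbol for 21789 probe sets, several for 1621 and none for 12146; the first kind was used, with the probe set of highest mean for each of 999 genes with more than 1, which left 19938 genes. Group means of all 12 groups were fitted with limma 3.58.1 (R 4.3.3) to the 28 arrays, with 16 residual and 4.87 prior degrees of freedom. The moderated tests were two-sided, with Benjamini-Hochberg adjustment over all genes of a comparison. Errors are standard errors (SE) of that model, with a median of 0.14 for groups of 2 arrays and 0.12 for groups of 3, and the number of arrays limits the precision. The fit was tested on simulated data.

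The members, the lists of related genes and markers, and the tests were chosen with earlier results of these data known. Named relatives were, for each comparison, up to 2 called higher and 2 called lower with the largest change; Iglon5, Cadm3, Cadm4, the L1 family, Cntn5 and Nlgn1 where not among these, and both St8sia genes were named after their values were seen. For each member the 2 genes with the highest Pearson r over the 12 group means were named. Markers without a value in the table used here were left out of their lists. Spans and promoter windows come from RefSeq's GRCm38.p6 tables; Cadm1 and Ncam1 had no matching window. The alternatives were quantile normalization, centring on array medians, a filter on dim genes, array weights, all probe sets, a fit to the arrays compared, a replicate block and leaving out each array.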

Additional observations from a re-analysis of the deposited data

Results flagged for a closer look

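The effects in 10 results on these genes differed by a test of the difference itself, that is, an interaction contrast of the limma model. For the knockout effect at TN day 2 minus that in NP cells these were Ncam2 (-2.32 ± 0.22) and Mdga2 (-1.72 ± 0.22). For the knockout effect at TN day 6 minus that at TN day 2 they were Mdga1 (-0.85 ± 0.14) and Negr1 (-0.77 ± 0.17). For the ICRF-193 effect at TN day 5 minus that in cortical neurons they were Opcml (2.32 ± 0.21), Ntm (1.67 ± 0.28), Cadm1 (1.15 ± 0.14), Ncam1 (1.10 ± 0.25), Ncam2 (-1.29 ± 0.20) and Mdga1 (-0.54 ± 0.14). Opcml had the largest such difference between the ICRF-193 effects, being called in cortical neurons and not at TN day 5. Groups of 2 or 3 arrays were not searched for outlying arrays.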

How the results depend on the processing

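Of the 66 calls on members, 54 held in every setting tried, and none of 1494 alternative values of member results reversed a called direction; 37 lost a call and 20 gained one. The number of members called moved by over 1.5 times in few cases. For the knockout effect at TN day 2 minus that in NP cells it was 4 with array weights, against 2. At TN day 2 it was 4 in a fit to the compared arrays alone, against 7. For the knockout effect at TN day 6 minus that at TN day 2 it was 4 in that fit, against 2. Leaving out each array in turn gave 0 to 2 members called in ES cells, 3 to 6 at TN day 2, and 1 to 2 for the difference between TN day 6 and TN day 2. Deviations of same-numbered arrays correlated at -0.23 in NP cells, 0.04 in ES cells, 0.14 at TN day 2 and 0.38 at TN day 5. Groups of 2 arrays give a single value without a spread, which cannot decide whether equal numbers mark paired samples. Such pairing, for which the TN day 5 value was the highest, was therefore not tested in these groups. At TN day 6 and in cortical neurons same-numbered arrays correlated at -0.06 to 0.07. Differently numbered arrays reached 0.16 at TN day 6 and 0.05 in cortical neurons, above the same-numbered arrays of each. With the number as a replicate block the members called were 0 in ES cells, 0 in NP cells, 7 at TN day 2, 8 at TN day 6, 7 with ICRF-193 at TN day 5 and 9 in cortical neurons. With the block, the wild-type step to NP cells had 6 members called (Ntm was lost), the differences between knockout effects had 3 each, against 2 each, and the difference between ICRF-193 effects had 5, against 6 (Mdga1 was lost). With crossed numbers in NP cells, chosen after seeing the data, it was 0. The values with few arrays set the limit: a fold change near the SE of 0.14 in pairs of arrays was not detectable, and the values carry no detection call, so whether low levels such as those of Mdga2 in ES cells lie above background is not known.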
